A study of Mus musculus with 8 samples.

Results

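The genes described here are the mouse transcription factor families Fox, Sox, Tbx and Pax, read out as open chromatin in brown adipose tissue (BAT). A gene was a member when its symbol is Fox with 1 letter and a number, or Sox, Tbx or Pax with a number, when it lies on an autosome, and when RefSeq lists a curated mRNA for it in mm10. The rule gave 80 genes, 41 Fox, 18 Sox, 12 Tbx and 9 Pax, of 20021 autosomal genes with a curated mRNA. A further 5 genes that match by name, Foxo4, Foxp3, Foxr2, Sox3 and Tbx22, lie on the X chromosome and were left out.

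Forkhead box (Fox) proteins bind DNA through a winged helix fold, Sox proteins through an HMG box that bends the minor groove, Tbx proteins through a T-box, and Pax proteins through a paired domain. Members of each family set up cell identity in the embryo, and many are used in one lineage only, with CpG-rich promoters held silent elsewhere by Polycomb proteins. Others, such as the FoxO and FoxK factors, work in many adult cells, where they carry insulin and nutrient signals. In brown fat, Foxc2 and Tbx15 are known for favouring the brown program, Tbx1 as a marker of beige fat, Sox9 for holding back preadipocytes, and Pax3 and Pax7 for marking the precursors that brown fat shares with muscle.

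Nuclei came from the BAT of 2 WT and 2 Dot1L-BKO mice, 12 weeks old, on chow and held at 4°C for 4 hr before collection. WT mice carried floxed Dot1l alleles without Cre, and Dot1L-BKO mice carried the same floxed alleles with a Ucp1-Cre transgene, so that the H3K79 methyltransferase Dot1l was deleted only in cells that had turned on Ucp1, while the other cells of the tissue kept it. ATAC-seq maps open chromatin by the insertion of adapters by the Tn5 transposase. The deposited result is a single list of 32173 peak summits, the highest point of each peak, named for the WT libraries against the Dot1L-BKO libraries, and each summit has a score, the −log10 of its MACS2 q-value. The role of the Dot1L-BKO libraries in the peak call, as control or as signal, is not given for this list. The study's methods describe peaks called in each sample and joined into a union of regions, but do not tie the list to that step, so that a summit may mark open chromatin in the tissue or chromatin more open in WT than in Dot1L-BKO mice, and these cannot be told apart. There is no value per library, so that the genotypes could not be compared, no replicate error or depth can be given, and each value below stands for this list as a whole. RNA-seq libraries of both genotypes were not analysed here.

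Scores ran from 1.307 to 13426 with a median of 5.001. Of brown adipocyte markers, 9 of 10 had a summit within 1 kb of a transcription start site (TSS), beside 46.8% of all autosomal genes, with best scores from 6.022 to 61.49, and Ucp1 had one with a score of 33.66. Of the markers of other cells in the tissue, 1 of 6 for endothelium (score 2.586), 2 of 6 for macrophages and leukocytes (2.149 to 3.322), 2 of 6 for fat progenitors and mural cells (2.526 to 4.156) and 1 of 6 for skeletal muscle (Mylpf, 43.68) had one. In whole tissue, fewer cells of a type and less open chromatin per cell cannot be told apart. Nor can either be told from chromatin open alike in both genotypes, if the Dot1L-BKO libraries were the control.

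Of the 80 genes, 22 had a promoter summit, defined as a summit within 1 kb of a TSS. This is 27.5% (95% Wilson interval 18.9% to 38.1%; such intervals reflect counting error alone), beside 46.8% of all autosomal genes. They were Foxa3, Foxd2, Foxj2, Foxj3, Foxk1, Foxk2, Foxm1, Foxn2, Foxo1, Foxo6, Foxp1 and Foxp4, then Sox4, Sox6, Sox7, Sox12, Sox13 and Sox17, and Tbx2, Tbx3, Tbx6 and Tbx20. No Pax gene had one. The 22 genes held 29 distinct promoter summits, with 1 each at 16 genes, 2 each at 5 genes and 3 at Sox6. With a wider window, 51 of 80 genes (63.8%, interval 52.8% to 73.4%) had a summit within 50 kb of a TSS, beside 73.0% of all genes. When summits within 1 kb of another gene's TSS were set aside, 41 genes (51.2%, interval 40.5% to 61.9%) had a summit within 50 kb, beside 63.8% of all genes. In the gene body, 23 genes (28.8%, interval 20% to 39.5%) had a summit, beside 41.2%. The members' shares were thus lower than the genome-wide shares in each of the 4 counts, and the interval reached the genome-wide value only for the 50 kb window.

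**Figure D1:**
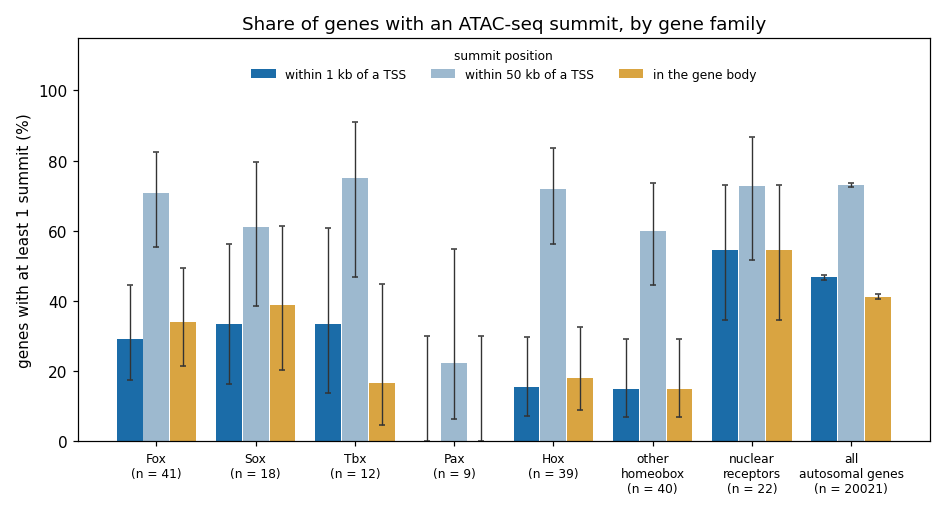
Share of genes (y axis, %) with at least 1 summit within 1 kb of a TSS, within 50 kb of a TSS or in the gene body, for the 4 families, for 3 other sets of transcription factor genes picked by symbol (nuclear receptors are those with an Nr symbol) and for all autosomal genes. Bars are shares and error bars are 95% Wilson intervals for counting error; the Pax genes have no bar for promoters or gene bodies, and the nuclear receptors stand at 54.5% for promoters.

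By family, promoter summits were found at 12 of 41 Fox genes (29.3%, interval 17.6% to 44.5%), 6 of 18 Sox genes (33.3%, 16.3% to 56.3%), 4 of 12 Tbx genes (33.3%, 13.8% to 60.9%) and 0 of 9 Pax genes (upper bound 29.9%). These intervals overlap. Within 50 kb the counts were 29 Fox (70.7%), 11 Sox (61.1%), 9 Tbx (75%) and 2 Pax genes (22.2%), beside 73.0% of all genes, so that the Fox and Tbx shares were close to the genome-wide one. The 2 Pax genes, Pax4 and Pax5, had summits only at the promoters of neighbours, Gcc1 and Snd1 for Pax4 and Zcchc7 for Pax5, so that no Pax gene had a summit of its own. For comparison, Hox genes had promoter summits at 6 of 39 (15.4%, interval 7.25% to 29.7%) and other homeobox genes at 6 of 40 (15%, 7.06% to 29.1%), while nuclear receptors, a family rich in metabolic regulators, had them at 12 of 22 (54.5%, 34.7% to 73.1%).

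The promoters of these genes are rich in CpG. In the 2 kb around the TSS, the CpG count over that expected from base composition had a median of 0.7193 over the 80 genes and 0.5061 over all autosomal genes, and 52 of 80 (65.0%) were at 0.6 or more, against 37.0% of all genes. Genome-wide, CpG-rich promoters were those that most often had a summit, 75.1% of genes at 0.6 or more and 30.2% of genes below. Among the Fox, Sox, Tbx and Pax genes the shares were 17 of 52 (32.7%, interval 21.5% to 46.2%) and 5 of 28 (17.9%, 7.88% to 35.6%). The distance between members and all genes was therefore wide at CpG-rich promoters, and smaller, with an interval that reached the genome-wide value, at CpG-poor ones.

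**Figure D2:**
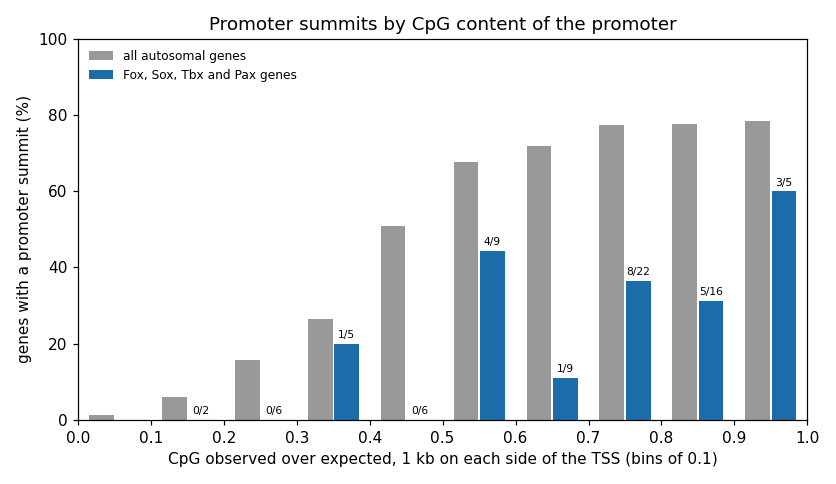
Share of genes with a promoter summit (y axis, %) by the CpG observed over expected of the 2 kb around the TSS (x axis, bins of 0.1), for all autosomal genes and for the Fox, Sox, Tbx and Pax genes, with the members' counts over the bars. The grey bars run from 1.23% in the lowest bin to 78.4% in the highest one drawn and differ little above 0.7, and the blue bars stay below them in each bin that holds members.

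The sequences under some of the summits, and just before the TSS of 4 genes with known roles in fat or its precursors and no summit within 1 kb, are given to show what these promoters look like. Each is read 5′ to 3′ on the strand of the gene from mm10, with every CpG in capitals, and sits upstream of the TSS. The Tbx3 window is short because a predicted longer transcript covers it.
Tbx3, chr5:119670810-119670839, + strand, score 37.55: caggacaggcCGtagtacCGCGCGgCGcag
Foxo3, chr10:42277733-42277853, - strand, score 39.28, 1098 bp from the TSS: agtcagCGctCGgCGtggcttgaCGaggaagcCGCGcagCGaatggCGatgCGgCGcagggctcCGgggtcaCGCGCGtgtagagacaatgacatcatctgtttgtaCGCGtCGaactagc
Sox12, chr2:152398898-152399018, - strand, score 12.79: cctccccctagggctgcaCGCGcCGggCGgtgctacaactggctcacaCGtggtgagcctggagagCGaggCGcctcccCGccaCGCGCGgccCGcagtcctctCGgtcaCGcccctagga
Sox7, chr14:63943592-63943705, + strand, score 8.117: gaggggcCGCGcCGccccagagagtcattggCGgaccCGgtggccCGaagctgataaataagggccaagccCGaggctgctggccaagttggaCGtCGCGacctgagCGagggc
Foxk2, chr11:121259569-121259689, + strand, score 7.046: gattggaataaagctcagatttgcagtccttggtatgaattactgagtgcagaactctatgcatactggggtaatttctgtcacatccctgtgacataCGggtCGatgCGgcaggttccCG
Foxo1, chr3:52267880-52268000, + strand, score 5.873: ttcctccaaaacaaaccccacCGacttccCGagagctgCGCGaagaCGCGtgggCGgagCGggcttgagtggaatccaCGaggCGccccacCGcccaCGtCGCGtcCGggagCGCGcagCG
Tbx15, chr3:99253639-99253759, + strand, no summit: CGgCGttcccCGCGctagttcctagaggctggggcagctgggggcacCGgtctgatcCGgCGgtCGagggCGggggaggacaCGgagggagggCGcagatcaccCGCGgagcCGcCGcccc
Foxc2, chr8:121116050-121116170, + strand, no summit: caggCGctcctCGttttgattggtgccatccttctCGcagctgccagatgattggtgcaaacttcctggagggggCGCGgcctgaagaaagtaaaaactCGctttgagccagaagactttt
Sox9, chr11:112782089-112782209, + strand, no summit: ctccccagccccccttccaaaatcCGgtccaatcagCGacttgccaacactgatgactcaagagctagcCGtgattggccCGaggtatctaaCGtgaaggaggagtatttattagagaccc
Pax3, chr1:78197137-78197257, - strand, no summit: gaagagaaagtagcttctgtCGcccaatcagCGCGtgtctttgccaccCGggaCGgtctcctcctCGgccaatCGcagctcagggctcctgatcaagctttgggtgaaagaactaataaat
Foxo1 has 18 CpGs in its 121 bases and Foxo3 has 17, whereas the Foxk2 window has 4. Tbx15, which has no summit nearby, has 15 CpGs in the same length just before its TSS, Pax3 has 7, Foxc2 has 6 and Sox9 has 5.

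Tbx3, a T-box repressor known from limb and mammary development, had the highest promoter score of the 80 genes. Its summit at chr5:119670825, 37 bp upstream of the TSS, scored 37.55 and ranked 1013 of 32173. The start of the antisense noncoding gene Tbx3os1 lies 683 bp from it, and opening at either start cannot be told apart. Another 3 genes had scores of 10 or more, which makes 4 of 80 (5.0%, interval 1.96% to 12.2%) beside 24.5% of all autosomal genes. Foxa3, a factor known from liver, scored 12.79 at chr7:19024250, but this summit lies 127 bp from the TSS of Sympk and 711 bp from that of Foxa3. Sox12, a SoxC factor expressed in many tissues, scored 12.79 at chr2:152398958, 912 bp upstream. Foxj3, expressed in many tissues, scored 10.94 at chr4:119539381, 280 bp upstream, with the TSS of Frg2f1 also within 1 kb.

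The other 18 genes scored below 10. Among genes with a promoter summit, 4 of 22 members (18.2%, interval 7.31% to 38.5%) reached 10, beside 52.3% of all such genes, and the median best score was 5.555 against 10.94. Scores repeat in the list, and 1349 summits share the value of 3.322 that Foxd2, Foxp1 and Sox4 had, so that ranks among low scores carry little.

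**Figure D3:**
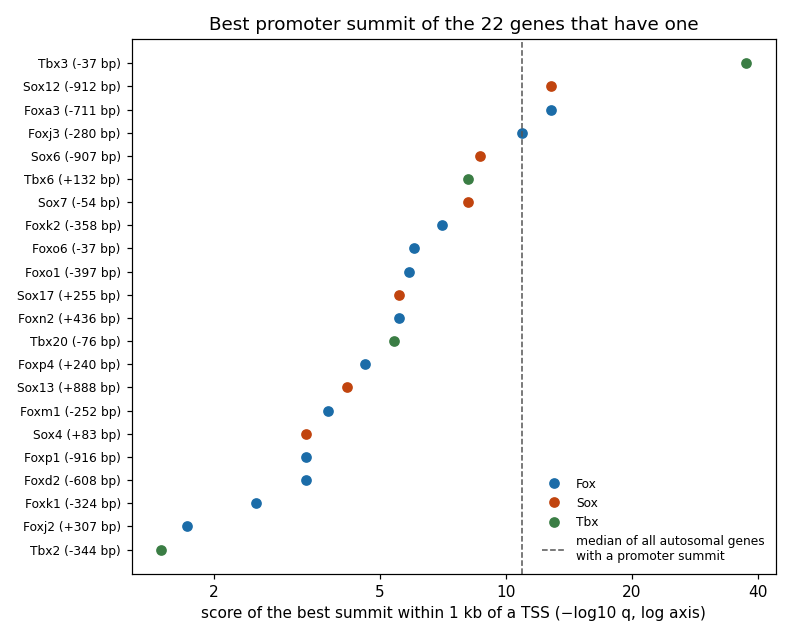
Score of the best summit within 1 kb of a TSS (x axis, −log10 q, log axis) for each of the 22 genes that have one (y axis, with the distance from the TSS, negative upstream). The dashed line is the median of all autosomal genes with a promoter summit, 10.94; 3 points lie beyond it, Foxj3 lies on it and 18 lie below.

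The 3 autosomal FoxO genes, whose proteins are targets of insulin signalling through Akt, each had a summit near the TSS. Foxo1 had one 397 bp upstream, at chr3:52267940, with a score of 5.873, and intronic summits with scores of 5.929 and 5.284. Foxo6 had promoter summits 37 bp and 684 bp upstream, the first at chr4:120287298, both with a score of 6.022, and a higher one of 12.16 in an intron 3805 bp downstream. Foxo3 lies just outside the 1 kb rule, with a summit of 39.28 at chr10:42277793, 1098 bp upstream, which ranked 932 in the list. Its score was above those of the 29 promoter summits, and the count of 22 turns on the window for this gene.

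The FoxK factors bind the promoters of nutrient-response genes. Foxk2 scored 7.046 at chr11:121259629, 358 bp upstream, and the summit of 47.29 within 50 kb of it sits at Narf. Foxk1 scored only 2.526 at its promoter, chr5:142401173, 324 bp upstream, yet its locus held more: 7 summits in the gene body, of which the 2 highest scored 20.89 and 10.94, and 1 of 25.72 at 34131 bp upstream, with no curated mRNA start closer than that of Foxk1.

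The FoxP factors are repressors, and Foxp1 is known for restraining the brown and beige program. Foxp1 scored 3.322 at chr6:99521909, 916 bp upstream, and its body of 595652 bp held 2 summits, one of 9.21. Foxp4 scored 4.609 at chr17:47924392, 240 bp downstream. Foxp2, known for its role in the brain, had no summit within 50 kb or in its 540629 bp.

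Of the remaining Fox genes, Foxj2 had a weak summit of 1.724 at chr6:122820491, 307 bp downstream, and 1 of 58.56 at 9087 bp upstream. This second summit lies in a masked repeat and has no nearer mRNA start than that of Foxj2. Foxn2 scored 5.555 at chr17:88441140, 436 bp downstream in an intron, and 3.322 at a second summit. Foxm1, needed for mitosis, scored 3.746 at chr6:128362742, 252 bp upstream, where the nearest TSS is that of Rhno1. Foxd2, known from kidney and neural crest, scored 3.322 at chr4:114909506, 608 bp upstream, with the start of the noncoding gene Foxd2os 249 bp away.

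Among Sox genes, Sox6, a SoxD factor of muscle and cartilage, had 3 promoter summits, the best of 8.646 at chr7:116031954, 907 bp upstream of one of its TSSs and inside an intron of its longer transcripts. The start of Sox6os lies 25 bp away. Its body of 567873 bp held 7 summits in all, and Sox5, its close relative, had none in 381144 bp or within 50 kb by curated transcripts, though not when predicted ones were added. Sox13, the third SoxD gene, scored 4.156 at chr1:133423324, 888 bp downstream, with 5 summits in the gene. Of the SoxF genes, which specify endothelium, Sox7 scored 8.117 at chr14:63943652, 54 bp upstream, and Sox17 scored 5.555 at chr1:4497099, 255 bp downstream. Sox18 had none within 1 kb, and its nearest lay 2030 bp upstream with a score of 3.746. Endothelial marker genes had a promoter summit in 1 of 6 cases, and their part in these values was not tested. Sox4, a SoxC gene, scored 3.322 at chr13:28953616, 83 bp downstream, while Sox11, its relative, was the gene farthest from a summit, at 560757 bp.

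Tbx6, a somite gene, scored 8.117 at chr7:126781615, 132 bp downstream, in a gene-dense stretch. It had 27 summits within 50 kb, the most of any member in this window, and 9 of these sit at the TSSs of other genes, such as one of 59.53 at Aldoa. Tbx20, known from the heart, scored 5.391 at chr9:24774379, 76 bp upstream, and had no other summit within 50 kb. Tbx2 scored 1.493 at chr11:85832271, 344 bp upstream, close to the lowest score in the list, with the noncoding start of 2610027K06Rik 117 bp away, but 4 higher summits, of 4.92 to 8.982, followed 10902 to 16615 bp downstream of its TSS. All 4 also fall within 50 kb of Tbx4.

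The best summits of the 22 genes lay upstream of the TSS in 15 cases (68.2%) and downstream in 7, against 57.4% upstream over all genes with a promoter summit. They sat within 100 bp of the TSS in 5 of 22 cases (22.7%), against 38.1%, and the median distance was 315.5 bp against 143 bp. By the annotation, 14 lay outside the gene, 5 in an exon and 3 in an intron.

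A list of genes chosen for ties to brown fat or adipocytes, made with earlier results of these data known, held 21 members. Of these 11 had a promoter summit, Foxa3, Foxj2, Foxj3, Foxk1, Foxk2, Foxo1, Foxo6, Foxp1, Foxp4, Sox4 and Sox6, 15 had one within 50 kb and 11 had one in the gene body, and the shares over all autosomal genes were 46.8%, 73.0% and 41.2%. The 10 without were Foxa2, Foxc1, Foxc2, Foxn3, Foxo3, Pax3, Pax7, Sox9, Tbx1 and Tbx15. Foxc2 had its nearest summit 7674 bp upstream, with a score of 6.528, and this one sits at the TSS of Mthfsd. Tbx15 had none within 50 kb or in its gene body, and its nearest, 112434 bp away with a score of 53.78, lies at Wars2. Tbx1 had 5 within 50 kb, scores 2.088 to 4.156, none closer than 14213 bp. The nearest summit lay 350041 bp from Sox9, 291835 bp from Pax3, 130193 bp from Pax7, 423344 bp from Foxc1 and 348929 bp from Foxa2. Foxn3, a repressor with a role in liver glucose handling, had 9 summits of 2.916 to 7.575 in its introns, the nearest 4641 bp from the curated TSS, and 2 of them, 7.046 and 7.575, lie within 1 kb of predicted starts that the curated set does not hold.

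Other lists were also made with earlier results known, and their counts stand beside promoter summits at 46.8% of all autosomal genes. Of 13 genes expressed in many tissues, 11 had a promoter summit, and the exceptions were Foxn3 and Foxo3, both with summits inside or beside the gene. Of 21 neural and neural crest genes 2 had one, Foxd2 and Tbx20. The counts were 2 of 7 for endothelial genes (Sox7 and Sox17), 2 of 7 for skeletal muscle and somite genes (Foxk1 and Tbx6), 0 of 3 for a list of lymphocyte genes (Pax5 and Tbx21, with Foxn1, which is a gene of the thymic epithelium), 1 of 1 for dividing cells (Foxm1), and 2 of 23 for genes in none of the lists (Tbx2 and Tbx3). These lists overlap and no test was run on them. Among T-box genes outside the naming rule, Mga, a partner of the Myc network, had a promoter summit of 9.785, and T, Eomes and Tbr1 had none. The X-linked Foxo4, Foxp3, Foxr2, Sox3 and Tbx22, and Sry on the Y chromosome, had none either.

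By subfamily, set beside 46.8% of all autosomal genes, both FoxK genes, 2 of 3 FoxO, 2 of 3 FoxP, 2 of 3 FoxJ, 2 of 3 SoxC, 2 of 3 SoxD and 2 of 3 SoxF genes had a promoter summit. The counts were 2 of 4 for the Tbx2 subfamily, 1 of 3 for FoxA, 1 of 4 each for FoxD and FoxN, and 1 of 5 for the Tbx1 subfamily. None was found at the 2 FoxB, 2 FoxC, 2 FoxE, 2 FoxF, 3 FoxI and 2 FoxL genes, nor at the 2 SoxB1, 2 SoxB2 and 3 SoxE genes, which include the pluripotency factor Sox2 and the neural crest factor Sox10.

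The nearest summit lay at a median of 19694 bp from the TSS over the 80 genes and 3039 bp over all autosomal genes. By family the medians were 16561 bp for Fox, 8648 bp for Sox, 16519 bp for Tbx and 174411 bp for Pax. Beyond the 22 genes within 1 kb, 11 had their nearest summit between 1 and 10 kb (13.8%, against 9.0% of all genes), 18 between 10 and 50 kb (22.5% against 17.2%) and 3 between 50 and 100 kb (3.75% against 9.82%). Another 25 genes (31.2%, against 15.4% of all genes) lay 100 to 500 kb from a summit, and Sox11 lay farther still.

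**Figure D4:**
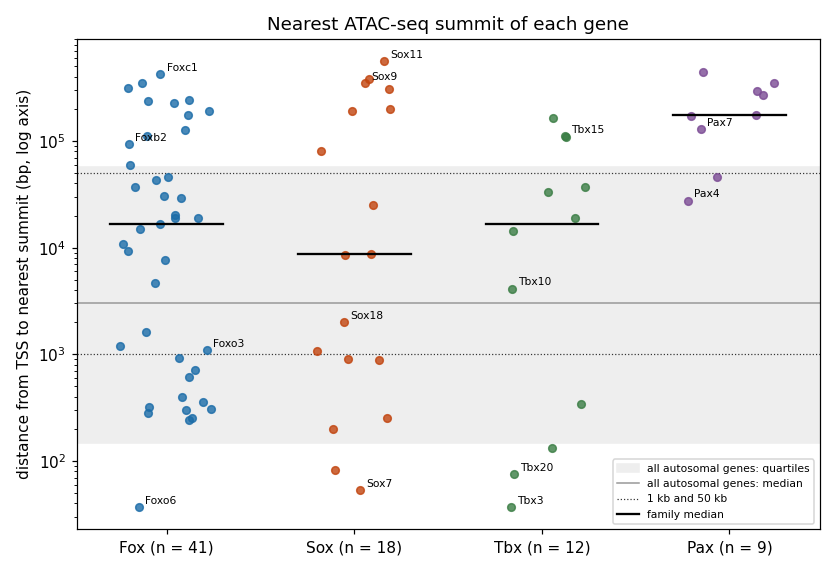
Distance from the TSS to the nearest summit (y axis, bp, log axis) for each gene, by family, with the family median as a black bar; the grey band spans the quartiles of all autosomal genes and the dotted lines mark 1 kb and 50 kb. Points of each family are spread sideways so that they can be seen, and they range from 37 bp to 560757 bp, with 7 of 9 Pax genes above the band.

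The 29 genes with no summit within 50 kb had none in the gene body either, and comprised 12 Fox, 7 Sox, 3 Tbx and 7 Pax genes. Their promoters were CpG-rich in 22 of 29 cases (75.9%, interval 57.9% to 87.8%), beside 16.0% of all autosomal genes with no summit within 50 kb. In 25 of 29 cases (86.2%, 69.4% to 94.5%) no other gene's TSS lay within 50 kb, beside 43.2% of those genes. For 13 of them the nearest summit sat at the promoter of another gene, such as Bnip2 for Foxb1 (23.09) and Eif2ak3 for Foxi3 (41.9).

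Gene spacing differed as well. No other gene starts within 50 kb of 42 of the 80 members (52.5%), against 26.8% of all genes. Among genes so isolated, 13 of 42 members (31.0%, interval 19.1% to 46.0%) had a promoter summit beside 39.5% of all such genes, and 17 of 42 (40.5%, 27.0% to 55.5%) had one within 50 kb beside 56.5%. With 1 to 3 other genes in reach, 6 of 29 members (20.7%, 9.85% to 38.4%) had a promoter summit beside 48.9%, and 25 of 29 (86.2%, 69.4% to 94.5%) had one within 50 kb beside 78.1%. With over 3, 3 of 9 (33.3%, 12.1% to 64.6%) had a promoter summit beside 50.7%, and 9 of 9 had one within 50 kb beside 81.2%. The members' interval lay below the genome-wide value for promoters with 1 to 3 other genes in reach and for the 50 kb window of isolated genes, and reached it in the other 4 counts.

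Of the 58 genes without a promoter summit, 29 had a summit within 50 kb (50%, interval 37.5% to 62.5%), beside 49.3% of all autosomal genes without a promoter summit, which is nearly the same share. The 10 with the most were Tbx10 with 23, Foxh1 with 21, Sox15 with 13, Foxr1 and Sox18 with 12 each, Sox10 and Tbx21 with 9 each, Foxj1 with 6, and Foxn1 and Tbx1 with 5 each. Some of these sat within 1 kb of a neighbour's TSS, and which gene a summit serves was not tested. Of the 23 around Tbx10, 8 sat within 1 kb of another gene's TSS, the highest of 37.87 at Ndufv1, a subunit of respiratory complex I. Of the 21 around Foxh1, 9 did, led by 52.18 at Kifc2, and the one nearest to Foxh1, of 9.21 at 1608 bp upstream, lies 87 bp from the TSS of Ppp1r16a. Around Sox15, 6 of 13 did, with 62.46 at Fxr2 and 54.73 at Eif4a1, and the summit nearest to Sox15 scored 4.609 at 1086 bp downstream. Around Foxr1, 4 of 12 did, with 60.51 at Slc37a4. Sox10 and Tbx21, genes of Schwann cells and of T cells, had 8 of 9 and 7 of 9 away from other genes' TSSs, but none closer than 8776 bp and 18825 bp. Foxj1, which drives motile cilia, had its nearest 1188 bp downstream with a score of 4.156, and Foxn1, known from the thymus, 10809 bp upstream with 1.829. Over all members, 66 of the 248 distinct summits within 50 kb lay within 1 kb of a non-member's TSS and of no member's TSS. Setting aside every summit within 1 kb of a non-member's TSS, also those at a member's TSS, left 179. For 10 genes no summit in the window lay beyond 1 kb of another gene's TSS. For Foxj3 and Foxm1, which are among these 10, that summit also lies within 1 kb of their own TSS.

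Where members lie close together, a promoter summit was found at 1 gene at most. Tbx3 and Tbx5 lie 163801 bp apart, and the nearest summit to Tbx5, a heart and forelimb gene, is that of the Tbx3 promoter. Tbx2 and Tbx4 lie 53752 bp apart and share 4 summits between them, with a promoter summit at Tbx2 alone. Foxd2 and Foxe3 share both of their summits, which lie at Foxd2. The mesenchymal genes Foxf1, Foxc2 and Foxl1, 31785 bp and 11514 bp apart, share 2 summits and have no promoter summit. Both summits are nearest to the TSS of Mthfsd, which is no member, at 160 bp and 3751 bp. Foxq1, Foxf2 and Foxc1 have no summit within 50 kb at all.

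**Figure D5:**
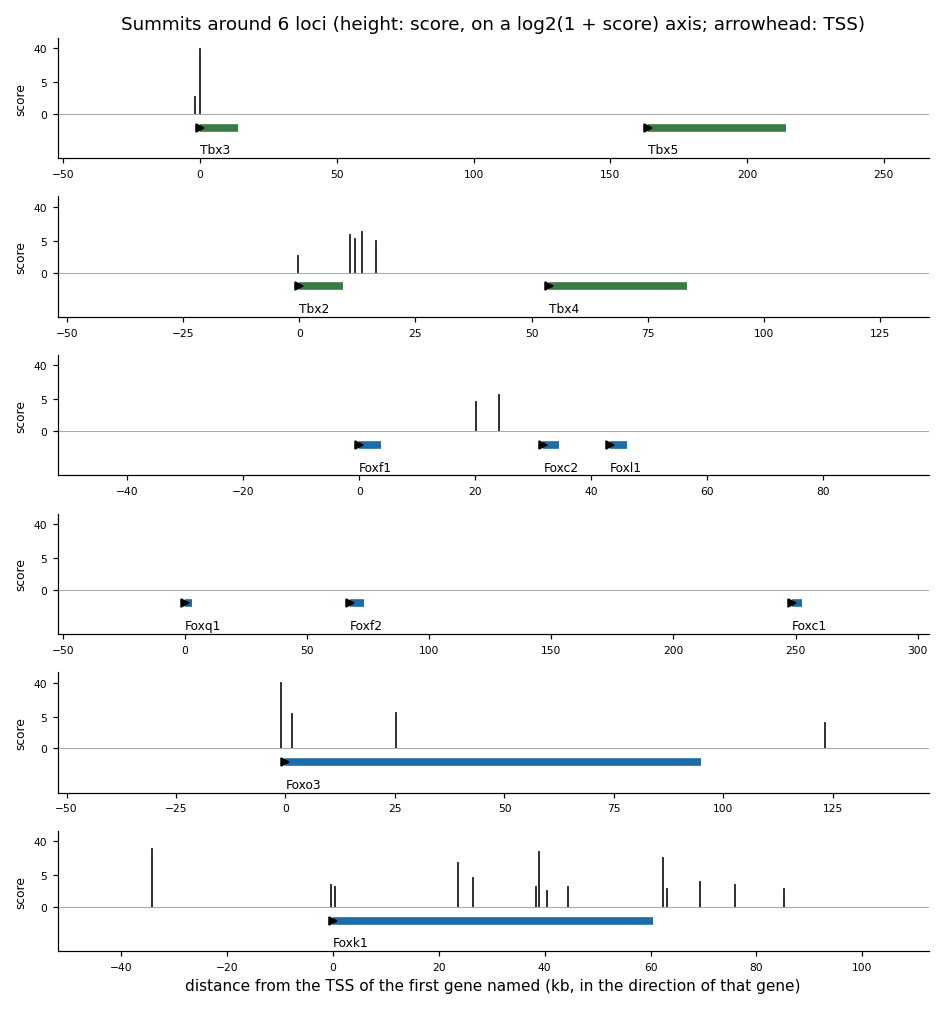
Summits (vertical lines, height by score on a log2(1 + score) axis) around 6 loci, with genes as coloured bars and the TSS as an arrowhead. Genes that are not members are not drawn. The x axis is the distance from the TSS of the first gene in kb. Tbx3 and Foxo3 have 1 high summit at or near the TSS, Tbx2 has a low one at the TSS and higher ones past its end, Foxk1 has its higher summits inside and around the gene, and the row of Foxq1, Foxf2 and Foxc1 is empty.

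Gene bodies held 57 distinct summits, 46 of them farther than 1 kb from a TSS of that gene, which is 1.121 per 100 kb of gene against 1.371 over all autosomal genes. Of the 7 genes of 100 kb or more, 3 had a body summit (42.9%, interval 15.8% to 75%) beside 61.4% of all such genes, and of the 44 genes under 10 kb, 9 did (20.5%, 11.2% to 34.5%) beside 28.1%. Foxn3 had 9 in 254981 bp and Foxk1 had 6 beyond 1 kb of a TSS in 60519 bp, whereas Foxp2, Sox5, Pax5 and Tbx15 had none.

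Short sequence patterns were searched on both strands within 100 bp of each summit. At the 29 promoter summits, the SP/KLF letters GGGCGG were found in 17 (58.6%, interval 40.7% to 74.5%), against 44.9% of all 10271 autosomal promoter summits, and the EBF letters CCCNNGGGA in 4 (13.8%) against 6.72%. None held the forkhead letters GTAAACA (1.30% of all), the T-box letters AGGTGTGA (0.506%), the C/EBP letters TTGCNNAA (5.58%) or the AP-1 letters TGANTCA (3.69%). One held a SOX pattern, ACAATG or ACAAAG (3.45% against 11.5%), and 2 the CTCF letters AGGGGGC (6.90% against 8.85%). With 29 summits, a count of 0 has an upper bound of 11.7%.

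Farther than 1 kb from any TSS, 153 summits lay within 50 kb of a member. They were set beside all 21458 autosomal summits farther than 1 kb from any TSS, which have no upper limit of distance to a gene. The C/EBP letters were found in 6 of the 153 (3.92%, interval 1.81% to 8.29%) against 13%, and the SP/KLF letters in 23 (15%, 10.2% to 21.5%) against 8.84%. The CTCF letters were found in 11 (7.19%, 4.06% to 12.4%) against 3.93%. These 3 intervals did not reach the share of the 21458 summits, but they count each window as independent. Of the 153, 15 lay around Tbx10 and 12 around Foxh1. The other patterns stood at 20.3% against 17.9% for SOX, 11.8% against 11% for EBF, 5.23% against 7.75% for AP-1, 1.31% against 1.69% for forkhead and 0 of 153 (upper bound 2.45%) against 0.750% for T-box. These windows had a median GC content of 56.22%, against 54.23%, and 7.84% of them lay in masked repeats against 16.5%. The part of base composition, repeats and distance to a gene in the motif shares was not tested. The 153 summits had a median score of 4.156, the same as for the 21458.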

How the data were processed

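ATAC-seq reads from BAT nuclei of 4 mice were processed by the authors with BWA and MACS2 2.1.1 in Partek Flow against mm10, keeping peaks with q up to 0.05 and enrichment of at least 2.0. The deposited values are 1 position per peak and its −log10 q-value, in a single list named for the 4 libraries. Whether reads were shifted for the transposase, and which libraries served as control, is not given in the sources used here.

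Summits were placed on curated RefSeq mRNAs of GRCm38 (mm10). Promoters were 1 kb each side of a TSS. Shares have 95% Wilson intervals. No test was run, since a single list has no replicates, and depth is unknown. The genes named were each member with a promoter summit, the 10 without one that had the most summits within 50 kb, and all of the brown fat list, with neighbours where a value turned on them. Members, lists and rules were chosen with earlier results of these data known. Placement was tested on simulated data, where 200 of 200 placed summits were found. Python 3.11.15, numpy 2.4.6, scipy 1.17.1 and matplotlib 3.10.9 were used. Score minimums, windows, transcript sets, merging and the way of giving summits to genes were varied. A further list of marker genes is not reported here.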

Additional observations from a re-analysis of the deposited data

How the results depend on the processing

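Of 52 recomputed counts and medians over 12 alternatives, 35 stayed within 1.5 times the reported count or, for the median score, between 3.322 and 8.117. Of 256 recomputed counts of summits within 50 kb of single genes, 97 moved lower and 14 higher by more than that. Tbx6, with the most summits, fell to 5 with nearest TSSs only, where Sox6 had 7, and within 100 kb it had 36 and Tbx10 had 42. A score of at least 5 left 13 members with a promoter summit, 14 promoter summits, 110 summits within 50 kb, and 12 members with 24 summits in the gene body. A score of at least 10 left 4 members with 4 promoter summits at a median of 12.79, 22 members with 43 summits within 50 kb, and 2 members with 3 summits in the gene body. A promoter window of 5 kb gave 58 summits. Counting a summit only for the gene of its nearest TSS left 31 members with 81 summits within 50 kb. Windows of 20 kb and 100 kb in place of 50 kb gave 128 and 422 summits.

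The share of members with a promoter summit stayed below that of all autosomal genes in the alternatives for which both were computed: 16.2% against 37.5% at a score of 5 or more, 5.0% against 24.5% at 10 or more, 21.2% against 42.9% within 500 bp, 36.2% against 51.8% within 5 kb, 23.8% against 36.4% from 1 kb upstream to 100 bp downstream, and 31.2% against 48.2% with predicted transcripts, which add Foxh1, Foxn3 and Foxn4 and also give Sox5 a summit within 50 kb and in the gene body, and Foxh1 and Tbx3 one in the gene body. Merging summits within 500 bp left 27.5% against 46.8%. Giving each summit only to its nearest TSS left 20 members, and the share of all genes was not computed for it. The 22 and 29 rest in part on low scores, since 9 of the 22 best summits score under 5. No paired analysis was possible because no library has scores of its own, which also kept single replicates from being left out. Depth limits what a missing summit means: a gene without one may be open below the peak cutoff or, if the Dot1L-BKO libraries were the control, open alike in both genotypes.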
